A study of Sus scrofa with 12 samples.

Results

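GLI1, the other core genes of the hedgehog pathway and INHBE, the gene that lies next to GLI1, were examined in the liver of Jinhua (JH) and Landrace (LD) pigs. The 10 genes were taken by symbol from the 31694 genes listed for each mRNA library, and all 10 were found. They were SHH and IHH (ligands), PTCH1, SMO and HHIP (receptors and decoy), SUFU, GLI1, GLI2 and GLI3 (the inhibitor and the transcription factors) and INHBE. GLI1 and INHBE were chosen because their levels were known to differ between the breeds in these libraries, so their values are a description and carry no test. The other 8 genes were chosen by pathway, and the question was whether they, or the genes around GLI1, moved with GLI1.

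Liver was taken from 3 JH and 3 LD uncastrated males aged 70 days, and each pig gave 1 mRNA library and 1 small RNA library. JH, a slow-growing Chinese breed that lays down much fat, is labelled as the experimental group, and LD, a fast-growing lean breed, as the control. The labels name no treatment, genotype or diet beyond breed and no litter or farm, so breed cannot be told apart from anything else that differed between the 2 sets of pigs. Libraries are named by breed and replicate number (JH1 to JH3 and LD1 to LD3).

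In the hedgehog pathway the ligands Sonic (SHH), Indian (IHH) and Desert hedgehog bind Patched (PTCH1), which otherwise holds Smoothened (SMO) inactive. Active SMO releases the GLI factors from SUFU. GLI2 and GLI3 carry most of the first response, and GLI3 is also the main repressor. GLI1 is an activator and is itself a target gene, as are PTCH1 and HHIP, which bind ligand and dampen the signal, so the RNA of GLI1 and PTCH1 is widely read as the output of the pathway. In adult liver, bile duct cells and stellate cells are the usual sites of hedgehog response, while hepatocytes show little. INHBE encodes the beta E subunit of activin, a secreted protein of the TGF-beta family made largely by hepatocytes, and INHBC, the next gene along, encodes the related beta C subunit.

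The values are RPKM, the reads of a gene scaled to its length and to the reads of its library, so that levels of different genes can be compared. The read totals behind them, worked back from the values, were 5744908, 7757535 and 7736802 for the JH libraries 1 to 3 and 7100535, 7894138 and 7914515 for the LD libraries. JH1 was the shallowest library, and JH3 stood apart by its 18S ribosomal RNA, with 62257 RPKM of RN18S against 1570.29 to 20159.8 in the other 5. Of the listed genes, 12080 (38.1%) were at 0 in every library, among them APOB, an abundant hepatocyte gene, so a 0 is given below only as listed at 0. The other hepatocyte markers were present, with ALB, the albumin gene, at 27532.7 to 53893 RPKM.

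GLI1 was far higher in JH liver. Its level was 13.7, 11.6 and 7.40 RPKM in JH1, JH2 and JH3 and 1.5, 1.71 and 0.672 RPKM in LD1, LD2 and LD3. The groups did not overlap, and the third pig was the lowest in both breeds. These levels rest on 192, 220 and 140 reads in JH and on 26, 33 and 13 reads in LD. The mean was 10.9 ± 3.2 RPKM in JH and 1.29 ± 0.549 RPKM in LD (SD, n = 3), a ratio of 8.42 and a log2 fold change of 3.03 with a standard error of 0.38. Without any 1 library the log2 fold change lay between 2.65 and 3.28.

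GLI2 and GLI3, the factors that act upstream of GLI1, were close to the limit of detection in both breeds. GLI2 had 0.143, 0.106 and 0.160 RPKM in JH and 0.116, 0.365 and 0.234 RPKM in LD, or 4 to 14 reads per library. Its ranges overlapped (two-sided exact permutation test, p = 0.3; with 3 pigs against 3 the smallest p is 0.1). GLI3 had 0.0438 and 0.0488 RPKM in JH1 and JH3, no read in JH2, where a count of 0 allows up to 0.0486 RPKM (3 reads), and 0.142, 0.0637 and 0.0954 RPKM in LD. All JH pigs lay below all LD pigs (exact permutation p = 0.1), but no library held more than 8 GLI3 reads. GLI1 made up 98.7%, 99.1% and 97.3% of the summed RPKM of the 3 GLI genes in JH and 85.3%, 80.0% and 67.1% in LD. Neither GLI2 nor GLI3 reached the level needed for the test across genes, at least 0.5 RPKM in at least 3 libraries.

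**Figure D1:**
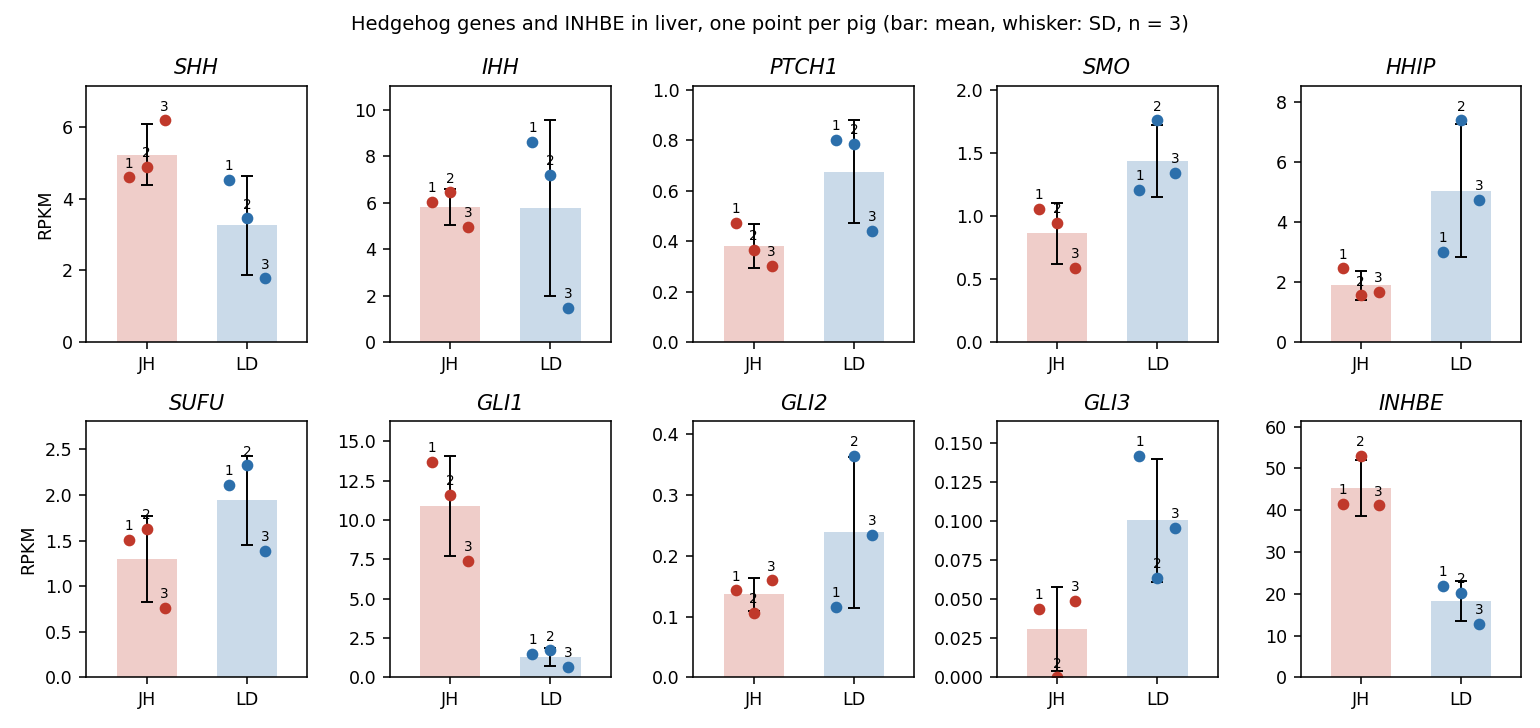
Level of each of the 10 genes in RPKM (vertical axes, each starting at 0) in JH and LD liver, with bars for the mean of 3 pigs, whiskers for the SD and numbered points for the pigs. GLI1, INHBE and SHH lie higher in all 3 JH pigs than in any LD pig, SMO, HHIP and GLI3 lie lower in all 3, and the other genes overlap.

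No ligand passed the test. SHH was read at 4.61, 4.90 and 6.20 RPKM in JH and at 4.54, 3.46 and 1.78 RPKM in LD. JH1 and LD1 nearly touched, and LD3 was the lowest. The log2 fold change of SHH was 0.75 with a standard error of 0.35 (limma, Benjamini-Hochberg adjusted p = 0.306). IHH was read at 6.04, 6.45 and 4.95 RPKM in JH and at 8.63, 7.19 and 1.48 RPKM in LD. LD1 and LD2 were above all JH pigs and LD3 below them, so the direction of IHH was set by LD3: its log2 fold change was 0.34 with all pigs (limma adjusted p = 0.797) and -0.44 without LD3 (adjusted p = 0.568). DHH, the Desert hedgehog gene, had 0.368, 0.136 and 0.137 RPKM in JH, 0.0745 and 0.067 RPKM in LD1 and LD2 and no read in LD3, where a count of 0 allows up to 0.2 RPKM. That limit lies above JH2 and JH3, no library held more than 4 DHH reads, and DHH was too low for the test. HHAT, which attaches the palmitate that ligands need for full activity, was the other tested gene of ligand release, at a log2 fold change of -0.97 (adjusted p = 0.362).

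The receptor genes had lower means in JH, on the opposite side from GLI1. PTCH1, the receptor and the usual companion of GLI1 as a readout, had 0.473, 0.367 and 0.301 RPKM in JH and 0.801, 0.786 and 0.441 RPKM in LD. The ranges touched only through LD3, and PTCH1 was too low for the test across genes (exact permutation p = 0.2). SMO, the signal transducer, had 1.05, 0.944 and 0.588 RPKM in JH and 1.21, 1.76 and 1.34 RPKM in LD. All JH pigs lay below all LD pigs, but the log2 fold change of -0.69 with a standard error of 0.37 did not pass the test (limma adjusted p = 0.363). The GLI1 level was 28.9, 31.6 and 24.6 times the PTCH1 level in JH and 1.87, 2.18 and 1.52 times in LD, so the usual paired readouts of the pathway stood in different proportions in the breeds.

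HHIP, the membrane decoy that binds ligand, had 2.46, 1.56 and 1.67 RPKM in JH and 3.01, 7.41 and 4.74 RPKM in LD, from 35, 30 and 32 reads and 53, 145 and 93 reads. Every JH pig lay below every LD pig, and LD2 was the highest. HHIP had the largest difference of the 5 tested hedgehog members other than GLI1, at a log2 fold change of -1.30 with a standard error of 0.36, but it missed the threshold (limma adjusted p = 0.107, and 0.0736 to 0.285 over the alternative settings). SUFU, the inhibitor of the GLI factors, had 1.51, 1.63 and 0.764 RPKM in JH and 2.11, 2.33 and 1.39 RPKM in LD, with overlapping ranges, a log2 fold change of -0.58 and a standard error of 0.38 (limma adjusted p = 0.468). JH3 was the lowest pig for both SUFU and SMO.

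The order of the levels within a breed changed mainly through GLI1. In JH, by mean RPKM, the order was INHBE, GLI1, IHH, SHH, HHIP, SUFU, SMO, PTCH1, GLI2 and GLI3. GLI1 was second, with its lowest pig above the highest IHH pig. In LD the order was INHBE, IHH, HHIP, SHH, SUFU, SMO, GLI1, PTCH1, GLI2 and GLI3, and GLI1 at place 7 overlapped with both of its neighbours in the order. In JH the pairs IHH and SHH, HHIP and SUFU, and SUFU and SMO overlapped, and the other neighbours in the order were apart. In LD the pairs INHBE and IHH, and PTCH1 and GLI2, were apart, and all other neighbours in the order overlapped.

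The wider pathway was read from a list of 54 genes, of which 47 were matched by symbol. A gene counted as called where limma gave it an adjusted p (Benjamini-Hochberg, over every gene tested) under 0.05 and a log2 fold change beyond 1 in either direction. Of the 12993 tested genes 2.39% met this, 1.02% with higher and 1.36% with lower levels in JH. Of the 46 matched genes other than GLI1, 4 were listed at 0 in all libraries, 12 were too low for the test and 30 were tested. None of the 30 was called by limma, 8 of them had an unadjusted p below 0.05, against 17.9% of all genes tested, and voom, a test on the recovered reads, called 1. The median log2 fold change of the 30 was -0.31, against 0.04 for all genes tested, and 20 of the 30 lay below 0, against 47.1% of all genes. JH lay wholly above LD in 3 of them and wholly below in 7, against 10.8% and 12.5% of all genes tested (23.4% for either direction).

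**Figure D2:**
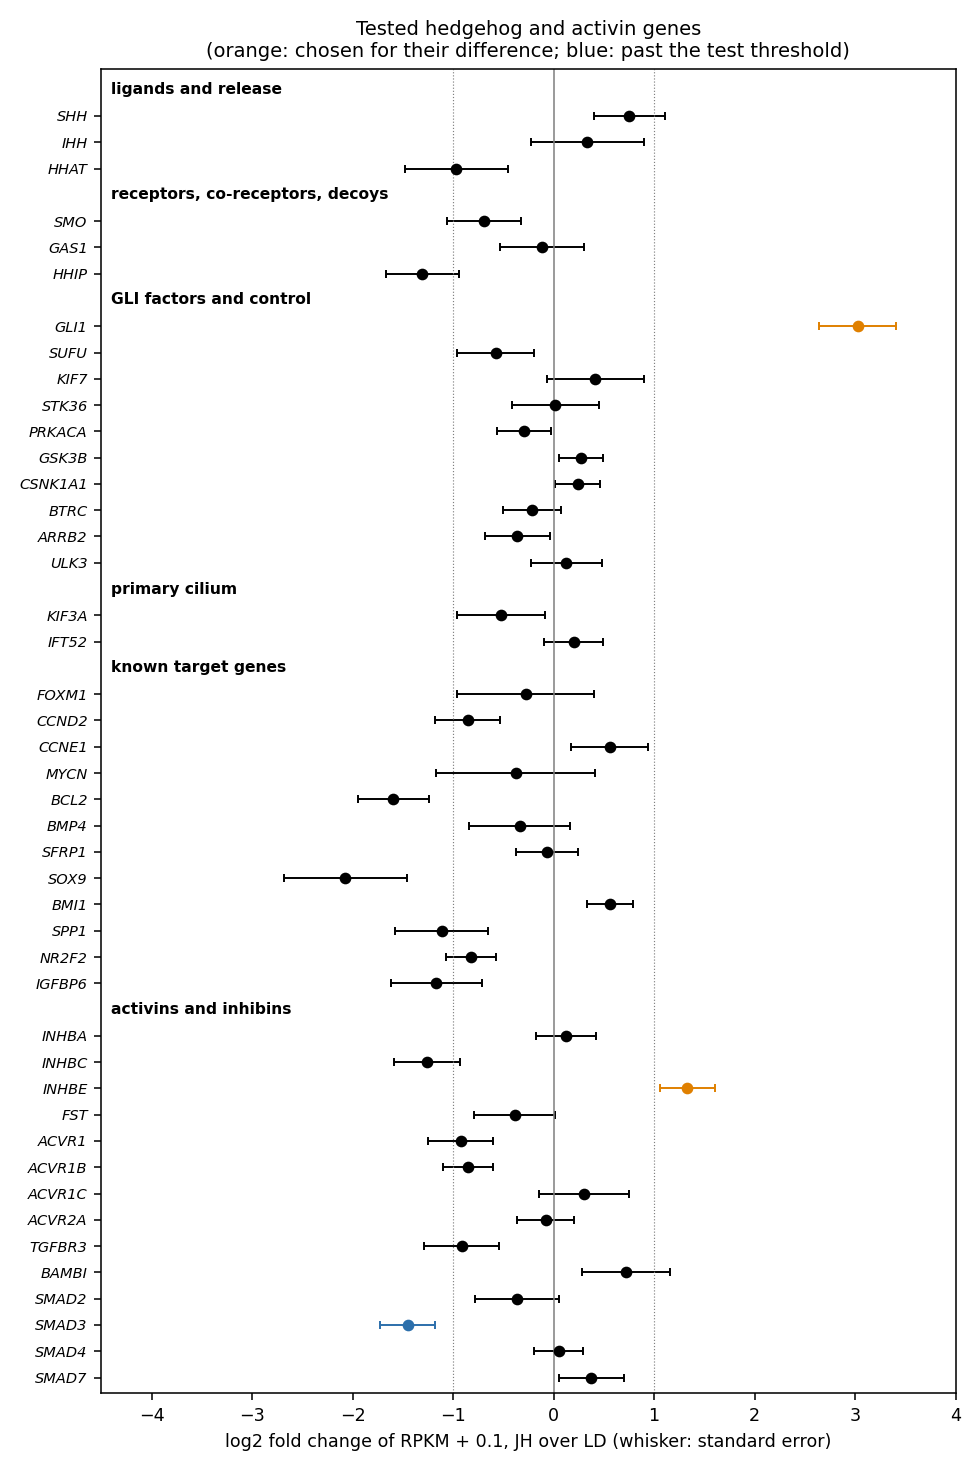
Log2 fold change, JH over LD, on log2(RPKM + 0.1), of the tested hedgehog and activin family genes (1 of them not plotted), with whiskers for the standard error and genes ordered by role. GLI1 (3.03) and INHBE (1.33), in orange, were chosen for their difference and carry no test, and SMAD3 (-1.45), in blue, was the 1 gene called among the others plotted.

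Target genes of the pathway were mostly lower than higher in JH, though none was called. Of 22 listed target genes 19 were matched and 13 tested, 11 with a log2 fold change below 0 and 2 above, with a median of -0.82. All 8 hedgehog genes with an unadjusted limma p below 0.05 were among these 13, against 17.9% of all genes tested. JH lay wholly below LD in 6 of the 13 and wholly above in 1, against 12.5% and 10.8% of all genes tested. The most abundant was SPP1, encoding osteopontin, at -1.11 (limma adjusted p = 0.248). NR2F2, a nuclear receptor of mesenchymal cells, followed at -0.82 (limma adjusted p = 0.131). BMI1, a Polycomb protein, lay higher in all 3 JH pigs at 0.56 (limma adjusted p = 0.236), and SFRP1, a Wnt antagonist, was at -0.06 (limma adjusted p = 0.938). BCL2, the survival factor, named here after its values were seen, had 0.919, 1.81 and 0.834 RPKM in JH and 3.82, 4.25 and 2.83 RPKM in LD. At a log2 fold change of -1.59 with a standard error of 0.35 it was just short of the threshold (limma adjusted p = 0.0545), and other settings called it lower in JH.

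Regulators of GLI proteins, genes of the cilium and co-receptors were not called either. Among the regulators of GLI proteins, the log2 fold change was 0.24 for CSNK1A1, -0.29 for PRKACA and 0.27 for GSK3B, the kinases that mark GLI factors for processing, and -0.36 for ARRB2, an arrestin that carries SMO into the cilium (limma adjusted p between 0.564 and 0.622). For the primary cilium, where the pathway works, IFT52 was at 0.20 (limma adjusted p = 0.768) and KIF3A at -0.52 (limma adjusted p = 0.576). GAS1, a co-receptor, was at -0.12 (limma adjusted p = 0.913), with 2.69 to 8.70 RPKM in JH and 4.31 to 6.87 RPKM in LD.

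INHBE, next to GLI1, was also higher in JH. Its level was 41.6, 53.1 and 41.2 RPKM in JH and 21.9, 20.1 and 12.8 RPKM in LD, from 497, 857 and 663 reads and 324, 331 and 211 reads. Every JH pig lay above every LD pig. The mean was 45.3 ± 6.76 RPKM in JH and 18.3 ± 4.83 RPKM in LD (SD, n = 3), a ratio of 2.47 and a log2 fold change of 1.33 with a standard error of 0.28, between 1.09 and 1.48 without any 1 library. The difference in INHBE was smaller than that in GLI1: the ratio of INHBE to GLI1 was 3.04, 4.57 and 5.56 in JH and 14.6, 11.8 and 19.1 in LD. The annotated spans of the 2 genes do not overlap in the RefSeq annotation of Sscrofa11.1, while that of GLI1 overlaps with ARHGAP9, which was listed at 0. The reads were aligned to the earlier build Sscrofa10.2, and overlapping genes cannot be separated without strand. Whether the GLI1 values hold reads of ARHGAP9 was not tested.

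INHBC, on the far side of INHBE from GLI1, lay the other way. It had 7.45, 15.5 and 9.89 RPKM in JH and 33.3, 25.2 and 18.9 RPKM in LD, with every JH pig below every LD pig. The mean was 10.9 ± 4.11 RPKM in JH and 25.8 ± 7.23 RPKM in LD (SD, n = 3). The log2 fold change was -1.26 with a standard error of 0.33 and missed the threshold (limma adjusted p = 0.0939, and 0.0445 to 0.258 over the alternative settings). INHBE RNA stood at 5.58, 3.43 and 4.17 times INHBC in JH and at 0.658, 0.801 and 0.678 times in LD. So by RPKM the more abundant of these adjacent subunit genes was INHBE in every JH pig and INHBC in every LD pig. In reads, INHBC had 61, 171 and 109 in JH, where INHBE had 497, 857 and 663. In LD, INHBC had 337, 283 and 213 reads and INHBE 324, 331 and 211. The order in LD therefore rests on the gene lengths worked back from the values, 1425 for INHBC and 2081 for INHBE.

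The other neighbours of GLI1 were not called. Of the 20 genes within 10 places of GLI1 in the gene order of RefSeq Sscrofa11.1, 12 were listed at 0 in all libraries, 9 of them among the 10 genes on the ARHGAP9 side and 3 among the 10 on the INHBE side. These included MARS, for methionyl-tRNA synthetase, and DCTN2, for a dynactin subunit, which every cell uses, so the 0 values are not read as silence. NAB2 was too low for the test. Of the 6 tested genes other than INHBE, 3 had an unadjusted limma p below 0.05, against 17.9% of all genes tested. None of the 6 was called, and their median log2 fold change was -0.59. They were INHBC, LRP1 (-1.06, limma adjusted p = 0.145), R3HDM2 (-0.74, limma adjusted p = 0.188), DTX3 (-0.44, limma adjusted p = 0.636), STAT6 (0.33, limma adjusted p = 0.608) and STAC3 (1.1, limma adjusted p = 0.471). LRP1, a lipoprotein receptor of hepatocytes, and R3HDM2, the gene next to INHBC, lay lower in all 3 JH pigs.

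**Figure D3:**
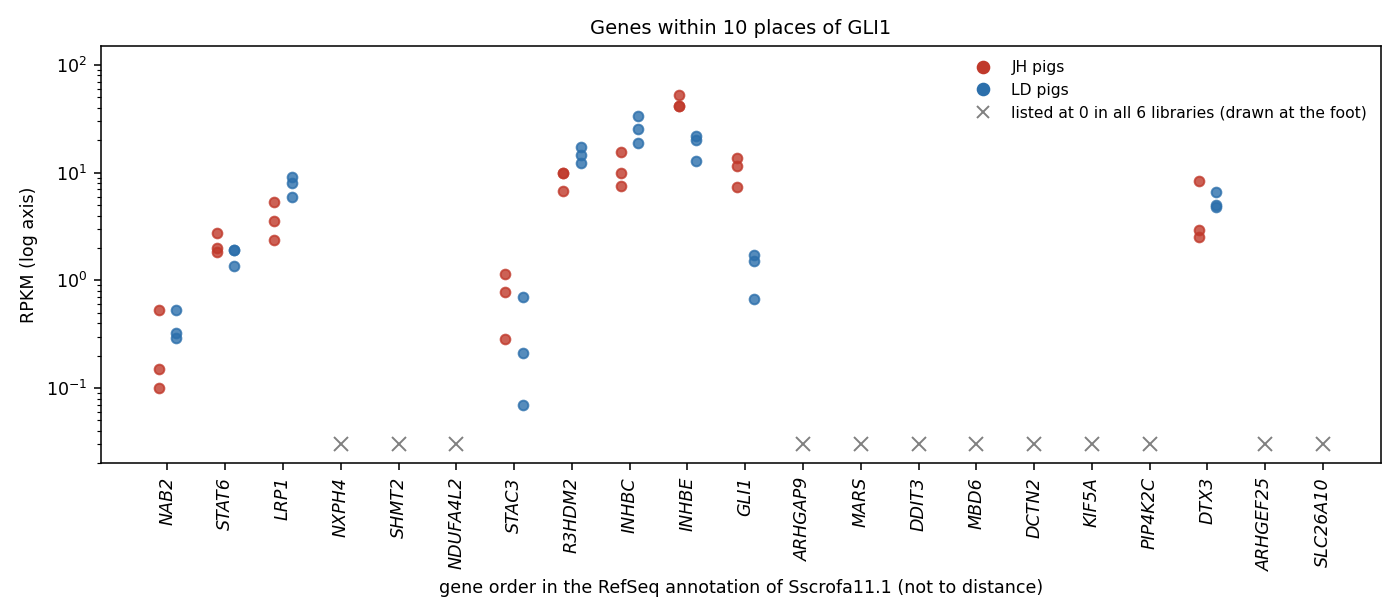
Level in RPKM (log axis) of GLI1 and the 10 genes on each side of it, in their RefSeq Sscrofa11.1 order, in each JH and LD library, with a cross for genes listed at 0 in all 6. GLI1 and INHBE lie higher in all JH libraries, INHBC, R3HDM2 and LRP1 lie lower, and 12 of the 20 neighbours are listed at 0.

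In the rest of the activin and inhibin family 1 gene passed the test. Of 17 genes other than INHBE, 13 were tested, 1 was called, 5 lay above 0 and 8 below, and the median log2 fold change was -0.36. Of all genes tested, 2.39% were called. SMAD3, which carries activin and TGF-beta signals to the nucleus, fell in JH: it had 1.39, 1.48 and 1.74 RPKM in JH and 4.63, 5.11 and 3.46 RPKM in LD. Its log2 fold change was -1.45 with a standard error of 0.27 (limma adjusted p = 0.0345). That call held in 1 of the 6 fits that left out a library, the one without JH3, and it was lost with no filter on low values (limma adjusted p = 0.0648). The type I receptor genes ACVR1 (-0.92, limma adjusted p = 0.182) and ACVR1B (-0.85, limma adjusted p = 0.123) lay lower in all 3 JH pigs without passing. SMAD7, an inhibitor of these signals, was at 0.38 (limma adjusted p = 0.58).

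The pattern of GLI1 was also set beside that of every other tested gene. Likeness was the root mean square difference between log2(RPKM + 0.1) profiles over the 6 libraries, each centred on its own mean, so a small value needs a similar shape and size of difference. Among 12992 genes the closest were CDX2 (0.145), LOC100627784 (0.333), LOC102163982 (0.353), LOC102166331 (0.38) and LOC102168019 (0.412), the last 4 known only by their identifiers. LOC102166331, at 0, 0.0976 and 0 RPKM in LD, and LOC102168019, listed at 0 in all 3 LD libraries, reached the level needed for the test in JH libraries alone, so the pseudocount sets their LD values. PTCH1, GLI2, GLI3 and DHH were too low to be placed. INHBE came at place 175 (0.902), SHH at 996 (1.21), IHH at 3527, SUFU at 10002, SMO at 10720, INHBC at 12106 and HHIP at 12203 (2.23). The closest to INHBE were LOC102167655 (0.0797), PPAPDC1B (0.0798), LOC100515273 (0.101), PAX2 (0.137) and LOC100523432 (0.141), with SHH at place 384 and GLI1 at place 8800. All these genes were measured in the same 6 libraries, so the likeness is a description of them.

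CDX2, a homeobox factor of the intestinal epithelium, had 1.27, 1.14 and 0.806 RPKM in JH and 0.0732, 0.132 and 0 RPKM in LD, from 14, 17 and 12 reads and 1, 2 and 0 reads, and a count of 0 in LD3 allows up to 0.197 RPKM. The log2 fold change was 2.86 with a standard error of 0.60, and it was 4.44 with a pseudocount of 0.01 and 0.95 with a pseudocount of 1, so its size and its likeness to GLI1 depend on the pseudocount. CDX2 was picked for its likeness to GLI1, which differs between the breeds, and it reached the level needed for the test in JH libraries alone, so no test is given. The other intestinal markers analysed were MUC13, whose level of 28.8 RPKM in JH2 compares with 2.40 to 6.74 RPKM in the other libraries, FABP2, above 0 in LD3 alone, and SI, the defining enzyme of the brush border, listed at 0 in all. The summed level of the intestinal list was 8.0, 29.9 and 4.12 RPKM in JH and 3.63, 2.53 and 2.90 RPKM in LD.

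**Figure D4:**
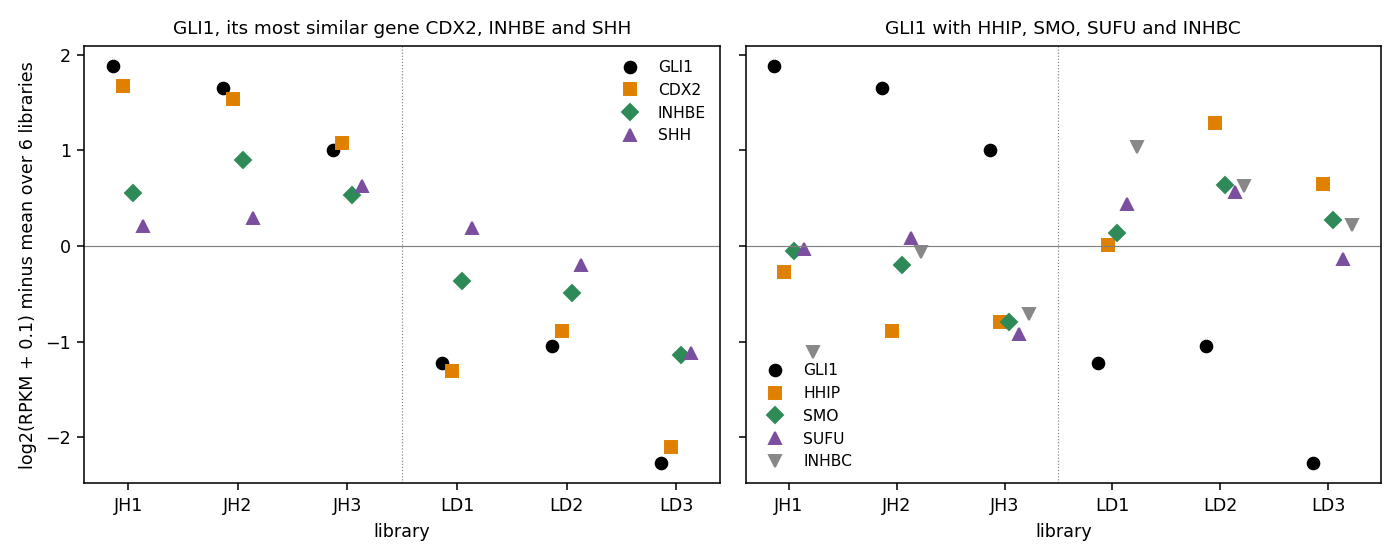
Log2(RPKM + 0.1) of each gene minus its mean over the 6 libraries, by library, for GLI1 with CDX2, INHBE and SHH (left) and for GLI1 with HHIP, SMO, SUFU and INHBC (right). CDX2 stays close to GLI1 in every library, INHBE has the same sign with a smaller spread, and HHIP and INHBC lie on the other side of 0 in most libraries.

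Some markers of the cells in which hedgehog genes are usually read fell in JH. Called lower were 3 of 10 in the stellate cell and fibroblast list and 2 of 5 in the bile duct list. Of all genes tested, 1.36% were called lower in JH. In bulk liver fewer cells of a type and less RNA per cell cannot be told apart. Of the stellate cell and fibroblast list all 10 genes were tested, all 10 lay below 0, 3 were called lower in JH and the median log2 fold change was -1.41. LUM, at 0, 0.333 and 0.267 RPKM in JH, reached the level needed for the test in LD libraries alone. Its direction was thus set by the filter, and its place in these counts adds nothing. The called genes were COL1A1 (-2.77, limma adjusted p = 0.0144) and COL3A1 (-1.75, limma adjusted p = 0.0159), for fibrillar collagens, and LRAT (-1.72, limma adjusted p = 0.0384), for the enzyme that stores vitamin A. The call held in 6 of the 6 fits without 1 library for COL1A1, in 4 for COL3A1 and in 1, that without JH3, for LRAT. LRAT was also lost with no filter (limma adjusted p = 0.0632) and with a pseudocount of 1, where its log2 fold change was -0.94. The summed level of the list, led by COL3A1, was 79.1, 88.0 and 78.1 RPKM in JH and 269.2, 341.5 and 176.2 RPKM in LD. The groups did not overlap. Within LD the order of the pigs by this sum was LD2, LD1 and LD3, which was also the order by GLI1, SUFU, BCL2 and SOX9. By SMO and by HHIP it was LD2, LD3 and LD1, and by PTCH1 it was LD1, LD2 and LD3. These orders were not tested.

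The bile duct list gave the same direction. Of its 5 tested genes all lay below 0, with a median of -1.55, and 2 were called lower in JH, EPCAM (-1.55, limma adjusted p = 0.0301) and MMP7 (-2.23, limma adjusted p = 0.019). EPCAM was called in 1 of the 6 fits without 1 library, that without JH3, and MMP7 in 3. With no filter on low values EPCAM was lost (limma adjusted p = 0.0592). The summed level of the bile duct list, led by SPP1, was 15.7, 21.7 and 10.25 RPKM in JH and 60.5, 57.5 and 27.5 RPKM in LD. KRT7 and KRT19, the defining keratins, were not analysed here. SOX9, a duct marker with 0.66, 0.349 and 0.14 RPKM in JH and 1.14, 3.98 and 1.09 RPKM in LD (log2 fold change -2.07, limma adjusted p = 0.127), and SPP1 are also on the list of hedgehog targets. GLI1 therefore lay opposite to the tested marker genes of these cells. SMO and 11 of the 13 tested target genes, HHIP among them, had the direction of the markers, though none of them was called, while BMI1 and CCNE1 had that of GLI1. The part of cell makeup in these levels was not tested.

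No gene of the hepatocyte, endothelial, smooth muscle, macrophage, lymphocyte or exocrine pancreas lists was called. None of the 6 tested hepatocyte genes was called (1 had an unadjusted p below 0.05 in limma), with a median of -0.05. The endothelial list had a median of -0.66 with 0 of 5 called (2 with an unadjusted p below 0.05 in limma). All 5 endothelial genes lay below 0, and JH lay wholly below LD in 3 of them. Of all genes tested, 17.9% had an unadjusted p below 0.05 in limma, and 12.5% had JH wholly below LD. The smooth muscle list, in which MYH11 was listed at 0, had a median of -1.07 with 0 of 2 called (1 with an unadjusted p below 0.05 in limma). Its 2 tested genes lay below 0. Its sums, led by TAGLN, were 25.9, 19.6 and 16.4 RPKM in JH and 87.1, 55.1 and 20.8 RPKM in LD, lowest in LD at LD3. JH2 had the highest macrophage sum (746 RPKM against 292 to 520.4 elsewhere, led by C1QA, with CD163 listed at 0) and the highest lymphocyte sum (45.5 RPKM against 12.0 to 18.1, led by CD2). None of the 4 macrophage genes, the 5 lymphocyte genes or the 1 exocrine pancreas gene tested was called by limma (1, 0 and 0 with an unadjusted p below 0.05). The pancreas gene, CELA2A, had a log2 fold change of 1.13 and at most 0.985 RPKM, and PNLIP was listed at 0.

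**Figure D5:**
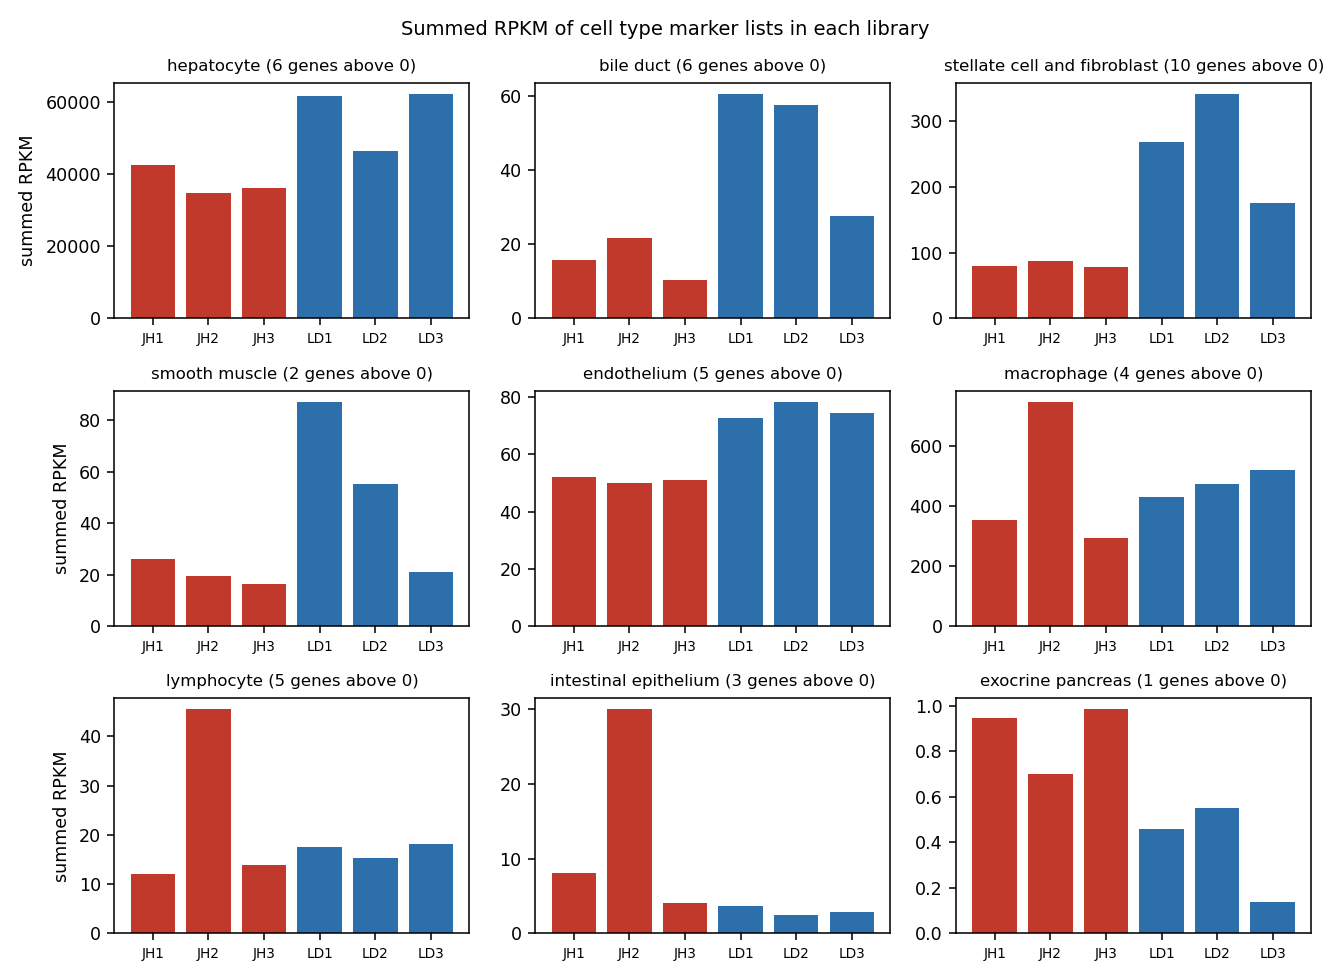
Summed RPKM of each cell type marker list (vertical axes, each starting at 0), with 1 bar per library. The stellate cell and fibroblast sums lie at 78.1 to 88.0 in JH and 176.2 to 341.5 in LD, the bile duct sums are also lower in every JH library, and JH2 has the highest macrophage and lymphocyte sums.

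The small RNA libraries of the same pigs held 6 miRNAs matched by name to a list of miRNAs known to target hedgehog pathway genes. Among them, ssc-miR-378b-3p was matched through the name of ssc-miR-378 and was not itself listed. Values are in RPM, reads scaled to the clean reads of the library. Of these ssc-miR-338 was listed at 0 in all libraries and the other 5 were tested. A miRNA counted as called where its unadjusted p was under 0.05 with a log2 fold change beyond 1 in either direction, which 12.4% of 241 tested miRNAs met (10.4% lower and 2.07% higher in JH). None of the 5 was called by limma, and 2 had an unadjusted p below 0.05, against 29.9% of all miRNAs tested. The median of all miRNAs was -0.30, and quantile normalization moved it to 0.06 and the split of calls from 5 higher and 25 lower in JH to 8 higher and 12 lower, so values near -0.30 are close to the typical miRNA.

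The 2 miRNAs were ssc-miR-125b and ssc-miR-324, which are known to target SMO and GLI1, and their difference from the typical miRNA was not tested. ssc-miR-125b had 814, 663 and 1170.5 RPM in JH and 1447, 1326.5 and 1128 RPM in LD, with JH3 above LD3, and a log2 fold change of -0.59 (limma unadjusted p = 0.0412, adjusted p = 0.144) that was -0.26 after quantile normalization (limma adjusted p = 0.502). ssc-miR-324 had 2.61, 2.21 and 1.69 RPM in JH and 2.92, 3.62 and 5.45 RPM in LD, from 18 to 76 reads, and a log2 fold change of -0.73 (limma unadjusted p = 0.0485, adjusted p = 0.162). Its groups did not overlap, and after quantile normalization its log2 fold change was -0.52 (limma adjusted p = 0.269). ssc-miR-326 was at -0.51 (limma adjusted p = 0.273) and after quantile normalization at -0.18 (limma adjusted p = 0.772). The others were ssc-miR-378b-3p at -0.22 (limma adjusted p = 0.555) and ssc-miR-378 at 0.00 (limma adjusted p = 0.995).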

How the data were processed

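Per the paper's methods, the authors filtered single-end reads, aligned them to the pig genome Sscrofa10.2 with TopHat2 2.0.13 and used gfold for gene counts. The authors deposited RPKM values, 1 file per mRNA library. For small RNA they deposited RPM values per miRNA, scaled to clean reads (10672374 to 13932322 per library). The library kit is not stated to mark strand, so overlapping genes cannot be separated. Read totals, gene lengths and whole reads were worked back from the RPKM steps, which resolved 15965 of the 15992 genes above 0 in at least 4 libraries (99.8%). Read numbers describe counting error only.

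JH was compared with LD in limma 3.58.1 (R 4.3.3) by lmFit, then eBayes with its trend option. Genes entered as log2(RPKM + 0.1) if 3 or more libraries reached 0.5 RPKM. The miRNAs entered as log2(RPM + 0.5) if 3 or more libraries reached 1 RPM. Fold changes are JH over LD on these scales and understate the change of low genes. Exact permutation tests were two-sided, on 6 libraries. The limma fit and the recovery of reads were also run on simulated data. Python 3.11.15, numpy 2.4.6, pandas 2.3.3, scipy 1.17.1 and matplotlib 3.10.9 made the tables and plots. Groups come from the public sample labels.

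The genes, gene lists and miRNA list were chosen with earlier results of these data known. Named were all 10 genes, the genes called in each list or otherwise up to 4 of the highest mean RPKM, the genes within 10 places of GLI1, the 5 most alike to GLI1 and to INHBE, and the listed miRNAs; BCL2, SOX9 and some marker genes were added after their values were seen. Gene order and overlap of annotated spans are from RefSeq Sscrofa11.1, not the build of the alignments, and no coordinates are given. Alternatives were other pseudocounts, no filter, quantile normalization, totals without ribosomal RNA genes, voom on recovered reads, a replicate block and leaving out each library. Promoter sequences were not used here. The lists' counts include 1 gene whose values are not reported here.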

Additional observations from a re-analysis of the deposited data

How the results depend on the processing

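Over 14 alternative settings for mRNA the log2 fold change of GLI1 stayed between 2.37 (pseudocount 1) and 3.28, with 2.65 to 3.28 when 1 library was left out, and that of INHBE between 1.09 and 1.48. The number of genes called was 310, and it was 200 with no filter, 199 with a pseudocount of 0.01 and 79 to 406 when 1 library was left out (164 without JH replicate 1, 150 without JH replicate 2, and 79, 114 and 149 without LD replicate 1, 2 and 3). The 1 hedgehog gene other than GLI1 that was called with a pseudocount of 1, quantile normalization, totals without ribosomal RNA genes, voom on recovered reads or median scaling (1 in each, the last chosen after seeing the data) was BCL2, lower in JH; the range without 1 library was 0 to 1, with BCL2 called without JH replicate 2. Totals without ribosomal RNA genes shifted the median of all genes by -0.11. Quantile normalization called 2 activin genes other than INHBE, SMAD3 and INHBC, and so 1 neighbour, INHBC, at -1.38 (limma adjusted p = 0.0445). With no filter SMAD3 was lost, which left 0 activin genes called (limma adjusted p = 0.0648), and the range without 1 library was 0 to 1. Bile duct markers called were 1 with no filter, where EPCAM was lost. Without 1 library they were 0 to 2 (0 without JH replicate 1 or LD replicate 1 or 2), and stellate cell and fibroblast markers 1 to 3 (1 without LD replicate 1 or 2). Without 1 library IHH ranged from -0.44 (without LD replicate 3, where its sign reversed) to 0.79, and ssc-miR-378 from -0.14 (without JH replicate 1) to 0.12, with -0.05 without LD replicate 2. DE miRNAs numbered 14 with a pseudocount of 5 and 28 to 38 without 1 library. The cause of these moves was not tested. GLI2, GLI3 and DHH rest on few reads, so their values are imprecise at this depth.

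The labels do not say that replicate numbers pair the pigs, and no pairing was used in the main fit. Deviations of same-numbered mRNA libraries from their breed means correlated at -0.02, 0.05 and 0.18, and 1 of the 3 numbers exceeded 0.1. With 3 pigs per breed these values cannot decide whether a pairing exists. With the replicate number as a block 253 genes and 29 miRNAs were called, and SMAD3 was lost, which left 0 activin genes other than INHBE (limma adjusted p = 0.0568), as was LRAT (limma adjusted p = 0.064). It ended no other call printed for a gene outside GLI1 and INHBE.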
